A study of Mus musculus with 36 samples.

Results

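Whole bladder RNA of CORT-treated mice was compared with that of vehicle-treated mice at the time label 4 h. The comparison holds 6 of the 36 libraries of the series, 3 CORT and 3 vehicle, chosen by treatment and time label and not by any measured value. CORT is corticosterone, the main glucocorticoid of mice. Every mouse in both groups was of the C57BL/6 strain and had lost both adrenal glands by bilateral adrenalectomy, which removes the main source of circulating corticosterone. The CORT group was then given corticosterone at what the labels call inactive timing, and the vehicle group the carrier only. The dose, the sex and age of the mice and the event that time zero stands for were not given in the sources used here, so 4 h is a position on the label clock. The other 30 libraries are 3 CORT and 3 vehicle at each of 8, 12, 16, 20 and 24 h, and the series title names the bladder's own clock and the daily micturition pattern as its subject.

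Glucocorticoids act through the glucocorticoid receptor, a hormone-activated transcription factor that is held by HSP90 chaperones in the cytoplasm until ligand binds. In most tissues a small group of genes, among them Fkbp5, Tsc22d3, Per1 and Sgk1, is known to respond within hours. The tissue clock is a feedback loop in which CLOCK and BMAL1 (encoded by Arntl) activate the Period, Cryptochrome and REV-ERB genes through E-box elements, and the proteins so made repress it. Per1 belongs to both systems, and glucocorticoids are known to reset the clocks of peripheral tissues.

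The values are quantile-normalized gene counts of the authors, put on 1 scale for all libraries. Before that step the mean total was 11016413 counts per CORT library and 10682675 per vehicle library, over the 18 libraries of all times in each. For replicates 1, 2 and 3 the means were 12311337, 11146599 and 9591304 in CORT and 10068455, 11551431 and 10428137 in vehicle. Each 4 h library correlated with the others of its own group at 0.982 to 0.986 and with those of the opposite 4 h group at 0.981 to 0.986 (mean over genes on the log2 scale). CORT replicate 1 correlated better with the vehicle group (0.986) than with its own (0.9841). Vehicle replicate 2 had 0.9856 with both, and the remaining 4 h libraries correlated better with their own group. The markers of the labelled tissue were present. In the 6 libraries the 16 urothelial markers summed to normalized values of 70125 to 118177 and the 11 smooth muscle markers to 286386 to 473493. The 8 erythroid and globin genes summed to 1641 to 2758, although the extraction text in the labels speaks of blood and of removing globin. Of the 9 prostate and seminal vesicle genes looked for, 7 were at 0 in all 6 libraries. Whether each replicate came from its own mouse is not stated, and the p-values therefore refer to the spread among libraries, part of which may be technical. The replicate 3 libraries were registered later than the others and take their time from their titles.

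Replicate 2 of both 4 h groups carries a second name. In the full gene tables used throughout it is CORT 4 h and vehicle 4 h, but in the smaller tables of genes that the authors selected, the column named CORT 4 h replicate 2 holds the library that the full tables name vehicle 16 h replicate 2. There the column named vehicle 4 h replicate 2 holds the library named CORT 16 h replicate 2. In all, 8 columns of replicate 2 differ in this way. Which naming is right was not tested. The counts, the called genes with the largest changes and some of the lists are therefore also given without these 8 libraries and under the other names. The remaining lists are not given in these settings.

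Of 17867 features tested across the transcriptome, 29 passed at an adjusted p of 0.05 (limma, a linear model with moderated variances and Benjamini-Hochberg adjustment), or 0.162%. There were 20 higher in CORT (0.112% of all tested) and 9 lower (0.0504%). Among the 20 were the glucocorticoid receptor targets Tsc22d3, Errfi1, Fkbp5, Per1 and Sgk1, the clock gene Per2, the cell cycle kinase gene Wee1 and the metabolic gene Pdk4, with 5 genes of immune cells. Among the 9 were the chemokine receptor gene Cx3cr1 and the apelin receptor gene Aplnr. Over all features the median log2 difference was 0.00091, and 50.1% of features were higher in CORT. Differences are on the log2(value + 1) scale, which understates the change of low features, and fold values below are taken from it.

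The spread inside the CORT group had one feature in common. Replicate 1 was the lowest of the 3 CORT libraries in 19 of the 20 genes that rose and the highest in 8 of the 9 that fell. Within replicate number 1, 28 of the 29 genes differed in the same direction as the group means, with a median absolute difference of 0.90. Within numbers 2 and 3 all 29 did, with medians of 1.74 and 1.73. In 19 of the 20 genes that rose and in all 9 that fell the groups did not overlap, which fixes these directions in advance. Without CORT replicate 1 of 4 h, 86 features were called, and without any other single 4 h library 6 to 14 were.

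Tsc22d3 encodes GILZ, a glucocorticoid-induced regulator that restrains inflammatory transcription. Its normalized values were 1854, 4707 and 3747 in CORT replicates 1, 2 and 3, against 659.5, 683.9 and 592.6 in vehicle. The lowest CORT library lay well above the highest vehicle library, and the vehicle libraries were close together. The difference was 2.31 ± 0.28 (log2, SE from the fit to all libraries, n = 3 each), or 4.96-fold, with an adjusted p of 0.000117 (limma). When the 6 libraries of 4 h were fitted alone, its adjusted p was 0.195 (limma).

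Errfi1 encodes MIG6, an inhibitor of the epidermal growth factor receptor. Its values were 1705, 3985 and 3346 in CORT and 522.3, 589.2 and 660.2 in vehicle, again without overlap. This was a difference of 2.27 ± 0.28 (log2, SE), or 4.81-fold (limma, adjusted p = 0.000123). All 3 CORT libraries of 4 h also lay above each of the 33 others of the series.

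Fkbp5 encodes the co-chaperone FKBP51, which lowers the hormone affinity of the glucocorticoid receptor and so closes a feedback loop. It stood at 1390, 2778 and 3138 in CORT and at 492.9, 474.3 and 539.9 in vehicle. Here too the 3 CORT libraries exceeded the 33 others. The difference was 2.19 ± 0.33 (log2, SE), or 4.57-fold (limma, adjusted p = 0.00160).

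Sgk1 encodes a serine/threonine kinase that promotes epithelial sodium transport. Its values were 579.7, 1219 and 1480 in CORT and 310.1, 363.9 and 417.7 in vehicle, so that CORT replicate 1 was nearer to the vehicle libraries than to the other CORT libraries. It rose by 1.49 ± 0.29 (log2, SE), or 2.81-fold, with an adjusted p of 0.0264 (limma).

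**Figure D1:**
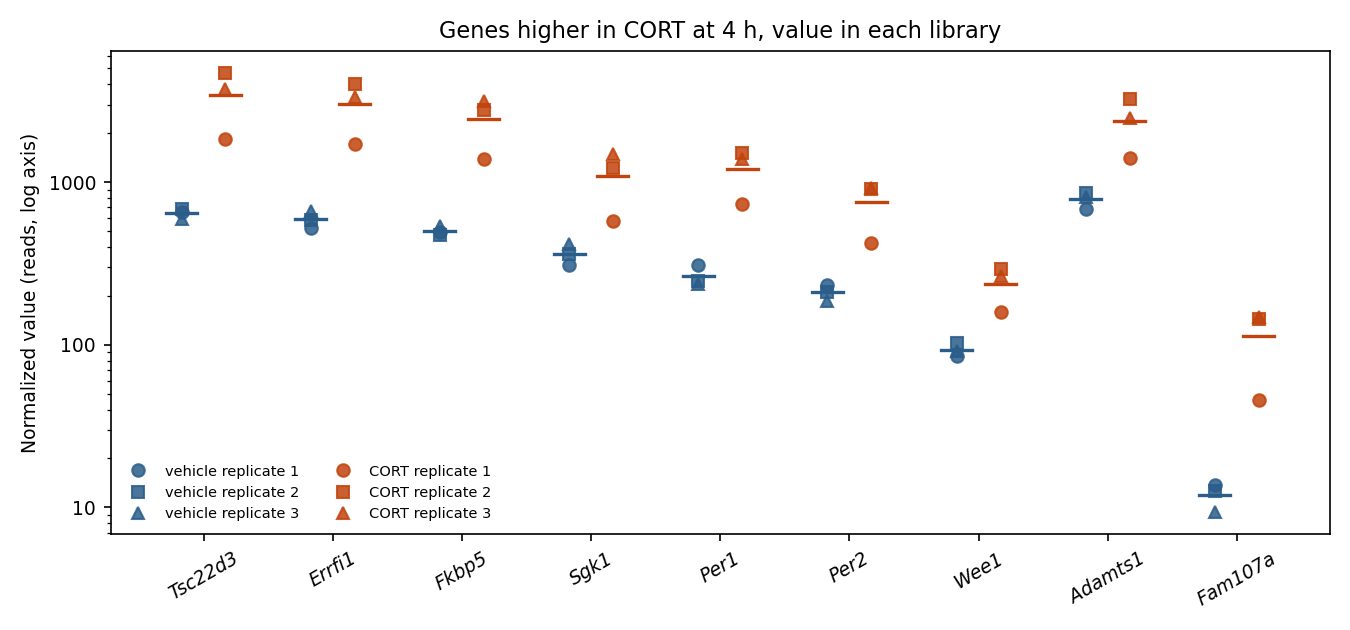
Normalized values (reads, log axis) of 9 genes that were higher in CORT at 4 h, 1 point per library (vehicle blue, CORT orange, the shape giving the replicate number) with a line at each mean of 3. In each gene the 3 CORT points lie above the 3 vehicle points, and the CORT circle, replicate 1, is the lowest of its group.

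Of the 22 classic glucocorticoid receptor targets listed, all were tested and 5 rose (Tsc22d3, Errfi1, Per1, Fkbp5 and Sgk1), none fell and 17 were not called. In 14 of the 22 the 3 CORT libraries lay above the 3 vehicle libraries without overlap, against 7.08% of all features, and in none below, against 6.29%. The median of the list was 1.03 (log2), with 21 of 22 members higher in CORT, beside 0.00091 over all features. Without the 8 libraries named in both ways the median was 0.97 with 21 of 22 higher, and under the other names it was 0.70 with 20 of 22 higher. This list and the others below were chosen with earlier results of these data known, and overlaps between them, such as Per1, are counted in each.

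Several members with large differences were not called. Zbtb16, a zinc finger transcription factor gene, stood at 2429, 3589 and 3220 in CORT and at 813.0, 585.1 and 718.6 in vehicle, a difference of 2.12 ± 0.52 (log2, SE; limma, adjusted p = 0.118). Cebpd, a transcription factor gene, stood at 361.8, 1016 and 930.8 against 173.8, 230.6 and 188.6, a difference of 1.83 ± 0.39 (limma, adjusted p = 0.0507). Neither gene had overlapping groups. Dusp1, a phosphatase gene that damps kinase signalling, overlapped, with 366.9, 891.4 and 788.9 in CORT and 153.9, 426.9 and 470.6 in vehicle (limma, adjusted p = 0.775). The single member lower in CORT was Angptl4, which encodes an inhibitor of lipoprotein lipase and is named after its values were seen (-0.84; limma, adjusted p = 0.810).

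A further list held glucocorticoid targets of muscle and fasting metabolism. Of 12 listed catabolic and FOXO genes 1 rose, Pdk4, whose kinase shuts off pyruvate dehydrogenase, and the median of the list was 0.20 (0.13 without the 8 libraries and 0.04 under the other names). Pdk4 stood at 1186, 3034 and 2905 in CORT and at 1241, 890.2 and 877.2 in vehicle. CORT replicate 1 lay below vehicle replicate 1, so Pdk4 was the single called gene whose groups overlapped, with a difference of 1.14 ± 0.23 (log2, SE; limma, adjusted p = 0.0320). Klf15, a transcription factor gene of the glucocorticoid and fasting response, stood at 322.9, 727.3 and 501.6 in CORT and at 127.4, 166.1 and 135.4 in vehicle. Its groups did not overlap, yet the difference of 1.78 ± 0.44 was not called (limma, adjusted p = 0.121). Foxo3 (0.43) and Irs2 (0.39) did not overlap either and were not called (limma, adjusted p = 0.315 and 0.547).

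Of 10 genes for steroid receptors, chaperones and corticosterone enzymes none was called, and their median was 0.05. Nr3c1, the glucocorticoid receptor gene, stood at 1973, 1748 and 1647 in CORT and 2413, 1757 and 1872 in vehicle, with overlap and a difference of -0.16 ± 0.18 (log2, SE; limma, adjusted p = 0.939). Of the 10 genes 8 overlapped and 2 were higher in CORT without overlap, against 7.08% of all features. Pgr, the progesterone receptor gene, stood at 75.4, 98.2 and 79.8 in CORT and at 46.6, 34.4 and 45.4 in vehicle, a difference of 0.99 ± 0.49 (limma, adjusted p = 0.729). Srd5a1, whose enzyme is a steroid reductase, stood at 592.1, 738.8 and 700.5 against 455.2, 582.1 and 507.6 (0.40 ± 0.21; limma, adjusted p = 0.785).

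In the clock, the repressor genes Per1 and Per2 rose. Per1 had normalized values of 735.5, 1504 and 1383 in CORT and 311.5, 248.4 and 235.3 in vehicle, without overlap. It was higher by 2.13 ± 0.28 (log2, SE), or 4.37-fold (limma, adjusted p = 0.000293). Per2 stood at 420.2, 912.7 and 919.5 in CORT and at 234.2, 210.3 and 186.2 in vehicle, also without overlap, and was higher by 1.75 ± 0.26, or 3.36-fold (limma, adjusted p = 0.00160). Set against the vehicle day, the 4 h vehicle values of both genes were the lowest of the 6 vehicle means. For Per1 the CORT mean at 4 h of 1207 ± 413 (SD, n = 3) was above the highest vehicle mean, 775.8 ± 154 at 12 h. For Per2 the CORT mean at 4 h of 750.8 ± 286 was below the highest vehicle mean, 846.2 ± 54.3 at 16 h.

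The other repressors were not called. In all, 9 of 10 listed repressors were higher in CORT, and the median was 0.52. Of the 10, 6 were higher without overlap, against 7.08% of all features. Ciart, a repressor of CLOCK and BMAL1, stood at 13.6, 47.6 and 38.1 in CORT and at 7.17, 3.50 and 2.44 in vehicle, values that rest on few reads in vehicle. Its groups did not overlap, and its difference of 2.59 ± 0.71 (log2, SE) had an adjusted p of 0.198 (limma). Cry2, a cryptochrome gene, differed by 0.48 without overlap (limma, adjusted p = 0.198). Nr1d1, the REV-ERB alpha gene that represses Arntl, went the other way, at 984.2, 908.5 and 965.0 in CORT and 1541, 1528 and 1411 in vehicle. These groups did not overlap, and the difference of -0.65 ± 0.34 was not called (limma, adjusted p = 0.785). In the vehicle libraries of the other times Nr1d1 ranged from 177.9 to 2122. Without the 8 libraries named in both ways the median of the repressors was 0.43, and under the other names 0.51, with 9 of 10 higher in each case.

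On the activating side, no gene of 6 was called. Arntl stood at 166.0, 83.1 and 83.5 in CORT and at 253.9, 341.0 and 333.8 in vehicle, without overlap. Its difference was -1.54 ± 0.36 (log2, SE; limma, adjusted p = 0.0720). Clock, the gene of the partner of BMAL1, stood at 2321, 1840 and 1682 in CORT and at 2766, 2385 and 2461 in vehicle, again without overlap (-0.39 ± 0.09; limma, adjusted p = 0.0959). With the replicate number as a term in the fit 2 of the 6 activators were called lower. The median of the 6 was -0.18, and -0.25 without the 8 libraries named in both ways and -0.14 under the other names. None was called in either of these settings. Of the clock output genes, Tef did not overlap and differed by 0.80, and Dbp, Hlf and Nfil3 overlapped, with a median of 0.62 over the 4 and none called. The median of these 4 was 0.45 without the 8 libraries and 0.60 under the other names.

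Wee1, whose kinase holds back entry into mitosis and which is known as a clock-controlled gene, had the smallest p of all features. It stood at 158.5, 292.1 and 263.2 in CORT and at 85.3, 103.0 and 91.1 in vehicle. No CORT library overlapped with a vehicle library, and the difference was 1.30 ± 0.16 (log2, SE), or 2.46-fold (limma, adjusted p = 0.000117). Fam107a, a stress-induced gene for an actin-associated protein, showed the largest called difference. It stood at 46.1, 144.2 and 147.4 in CORT and at 13.7, 12.7 and 9.33 in vehicle, a difference of 2.98 ± 0.54, or 7.87-fold (limma, adjusted p = 0.0125).

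Wee1, Tsc22d3, Errfi1, Per1, Fkbp5 and Per2 were the 6 genes that stayed called whichever of the 6 libraries of 4 h was left out. Their largest adjusted p among these omissions was 0.00348 for Wee1 and Tsc22d3, 0.00382 for Errfi1, 0.00841 for Per1, 0.0356 for Fkbp5 and 0.0410 for Per2 (limma). Without the 8 libraries named in both ways the differences of these 6 genes were 1.20, 2.07, 2.02, 1.89, 2.02 and 1.57 (log2), in the order just given. Under the other names they were 0.85, 1.51, 1.31, 1.45, 1.34 and 1.43. In neither case did a gene of the 29 pass: the smallest adjusted p among them without the 8 libraries was 0.0824 (limma), for Wee1 and Tsc22d3. All 29 kept their direction without the 8 libraries, each with an unadjusted p of at most 0.0112 (limma), and their median size was 1.34 in place of 1.42. Replicates 1 and 3 of both 4 h groups, kept in both settings, had also served to choose these genes. Kept direction and these unadjusted p are therefore no independent support.

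Under the other names the median size of the 29 was 0.85, all kept their direction, and 24 had an unadjusted p under 0.05. Pdk4 was among those that did not, with a difference of 0.49 (unadjusted p = 0.172), and 0.83 without the 8 libraries. Cx3cr1 was another, with -0.85 (unadjusted p = 0.0907), and -1.34 without the 8. Id1 stood at 0.75 (unadjusted p = 0.0756) and Ms4a4a at 0.94 (0.0542), and without the 8 libraries at 1.34 and 1.61. For Sgk1 the values were 0.85 under the other names and 1.36 without the 8 libraries, for Aplnr -0.93 and -1.47, for Adamts1 0.83 and 1.32, and for Fam107a 2.12 and 2.76. The immune genes Amica1 (1.18 and 1.72), Ms4a6b (1.00 and 1.36), Tlr7 (0.63 and 0.88) and Ncf1 (0.83 and 1.14) were likewise smaller under the other names, in the same order of settings. Of the genes not called, Zbtb16 had 1.21 and 1.87, and Arntl -1.22 and -1.30.

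Promoter windows were read for clock and glucocorticoid genes that passed, to place these values beside the elements of both systems. Windows were at hand for Tsc22d3, Errfi1, Per1, Fkbp5, Sgk1 and Pdk4, and those of Per2 and Wee1 were not analysed here. Windows of 300 bases, running from 250 before to 50 after a start site, came from the RefSeq table for GRCm38.p6, the assembly of mm10. The motifs sought, on both strands, were the E-box CACGTG of CLOCK and BMAL1, the D-box TTATGTAA of the PAR bZIP factors, and the glucocorticoid element with its half-sites AGAACA and TGTTCT, in that order and separated by any 3 bases. Of 32851 windows for 27025 genes, 7.15% held the E-box, 0.938% the D-box and 0.00913% (3 windows) the glucocorticoid element. Per1 matched in 1 of 2 windows and Fkbp5 in its 1 window, whereas the 3 windows of Tsc22d3, the 2 of Errfi1 and the 1 of Pdk4 held none of the motifs. Sgk1 matched in 1 of 6 windows and was added after that match was seen. The windows with a match follow, 5′ to 3′ on the gene's strand, with matches in capitals. Per1 (chr11:69098699-69098998, plus strand) holds an E-box at position -166 from the start site. Fkbp5 (chr17:28486100-28486399, minus strand) holds an E-box at -169. Sgk1 (chr10:21993640-21993939, plus strand) holds an E-box at -246 and the glucocorticoid element at -189, and is 1 of the 3 windows with that element. The printed windows of Per1, Fkbp5 and Sgk1 each lie at a start site inside the annotated gene. These are letter matches in a fixed window and say nothing of binding.
Per1: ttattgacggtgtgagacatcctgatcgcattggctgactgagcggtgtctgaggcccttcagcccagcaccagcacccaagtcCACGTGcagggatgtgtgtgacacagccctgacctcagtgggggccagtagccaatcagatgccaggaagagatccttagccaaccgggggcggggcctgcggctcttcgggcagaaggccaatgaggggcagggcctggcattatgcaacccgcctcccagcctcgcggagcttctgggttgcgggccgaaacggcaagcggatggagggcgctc
Fkbp5: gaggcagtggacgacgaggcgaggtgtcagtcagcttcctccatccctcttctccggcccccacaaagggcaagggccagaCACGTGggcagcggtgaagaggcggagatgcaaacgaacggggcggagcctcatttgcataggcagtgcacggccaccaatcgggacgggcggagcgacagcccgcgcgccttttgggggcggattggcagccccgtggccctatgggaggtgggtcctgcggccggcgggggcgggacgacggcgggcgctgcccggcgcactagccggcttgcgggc
Sgk1: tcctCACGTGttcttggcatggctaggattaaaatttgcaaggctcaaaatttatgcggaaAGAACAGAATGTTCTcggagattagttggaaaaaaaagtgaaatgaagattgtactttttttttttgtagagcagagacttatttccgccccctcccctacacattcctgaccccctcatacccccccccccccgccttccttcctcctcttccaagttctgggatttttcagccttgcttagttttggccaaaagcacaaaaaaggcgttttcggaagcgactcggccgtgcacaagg

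On mm10 the annotated genes are at chromosome 11, 69095217 to 69109960 for Per1, chromosome 17, 28399094 to 28517527 for Fkbp5, and chromosome 10, 21882184 to 21999903 for Sgk1. Tsc22d3 is at chromosome X, 140539528 to 140600659, Errfi1 at chromosome 4, 150853919 to 150868892, Wee1 at chromosome 7, 110122046 to 110143286, and Per2 at chromosome 1, 91415982 to 91459324. Per1, Errfi1, Sgk1 and Wee1 are on the plus strand, and Fkbp5, Tsc22d3 and Per2 on the minus strand. The libraries were made with a directional kit, but whether counting used the strand is not given in the sources used here.

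Genes of immune cells were among both the called increases and the called decreases. Amica1 (also Jaml), an adhesion molecule gene of leukocytes, stood at 24.9, 92.5 and 63.7 in CORT and at 10.9, 12.3 and 12.0 in vehicle. All 3 CORT libraries were above the vehicle libraries, with a difference of 2.08 ± 0.35 (log2, SE), or 4.24-fold (limma, adjusted p = 0.00526). Ms4a6b, a member of a family of tetraspan membrane proteins of immune cells, stood at 121.6, 208.6 and 232.0 against 64.8, 59.4 and 64.8, and was higher by 1.51 ± 0.28 (limma, adjusted p = 0.0187). Its relative Ms4a4a stood at 40.4, 81.2 and 99.9 against 26.5, 12.9 and 15.4, and was higher by 1.93 ± 0.40 (limma, adjusted p = 0.0457). These 2 genes lie near each other on chromosome 19 and belong to a family of similar sequence, so reads may be shared between members.

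Tlr7 and Ncf1 were also called, although the rule for naming genes did not include them, and they were added after their values were seen. Tlr7, an endosomal sensor of single-stranded RNA, stood at 191.0, 240.5 and 262.0 in CORT and 114.2, 103.7 and 128.6 in vehicle (0.99 ± 0.19, log2, SE; limma, adjusted p = 0.0236). Its CORT values, like those of Ms4a6b, exceeded the 33 other libraries. Ncf1, a subunit of the phagocyte NADPH oxidase, stood at 46.7, 65.1 and 74.1 in CORT and 20.8, 24.9 and 32.7 in vehicle (1.21 ± 0.26; limma, adjusted p = 0.0465).

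Cx3cr1, the fractalkine receptor gene of monocytes and macrophages, fell. Its values were 81.5, 38.9 and 36.9 in CORT and 125.6, 198.9 and 157.9 in vehicle, without overlap. The difference was -1.67 ± 0.28 (log2, SE), a vehicle to CORT ratio of 3.18 (limma, adjusted p = 0.00631), and it was called in 3 of the 6 omissions of a single 4 h library.

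The general macrophage markers did not follow Cx3cr1. Of 11 tested, Cx3cr1 alone was called, 7 were higher in CORT and 4 lower, and the median was 0.12. The summed markers were 8586 to 9194 in CORT and 7950 to 8690 in vehicle. Csf1r and Adgre1 are given as general markers and were picked after their values were seen. Csf1r, the receptor gene for the macrophage growth factor, stood at 1215, 1315 and 1571 against 1270, 1216 and 1191, and Adgre1, which encodes F4/80, at 415.9, 453.8 and 471.6 against 378.4, 468.7 and 397.2. Mrc1, a mannose receptor gene of resident macrophages, stood at 2044, 1829 and 2177 against 1668, 1634 and 1619, without overlap (0.29; limma, adjusted p = 0.707). In whole tissue, fewer cells of a type and less RNA per cell cannot be told apart. T and NK cell markers summed to 659.5 to 781.2 in CORT and 769.3 to 916.6 in vehicle. Of these 13 markers, however, 8 were higher in CORT and 5 lower, with a median of 0.26 (log2). MHC class II genes summed to 6978 to 7772 in CORT and 7037 to 7669 in vehicle, with 3 higher, 6 lower and a median of -0.05. None of either list was called. Of 9 neutrophil genes listed, Ly6g and Camp were at 0 in all 6 libraries, and 3 were high enough to be tested, with none called. Among those 3, Csf3r stood at 17.81, 16.89 and 25.75 in CORT and at 20.19, 16.25 and 14.25 in vehicle.

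**Figure D2:**
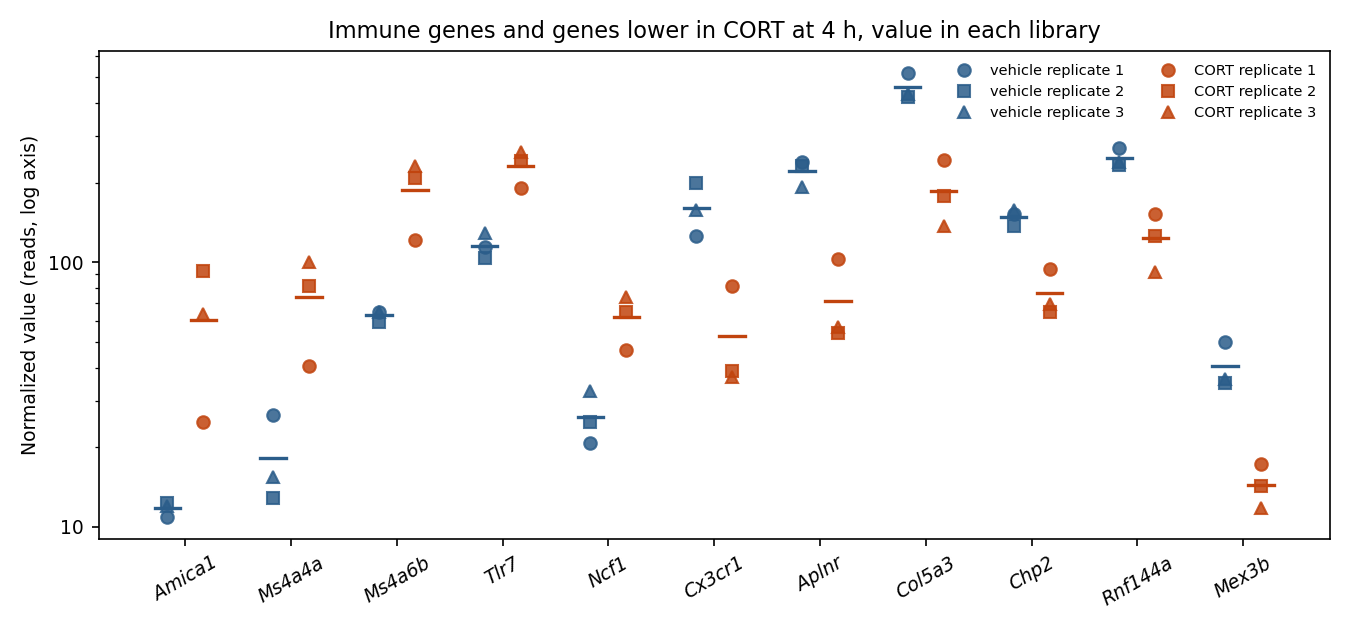
Normalized values (reads, log axis) of 5 immune genes that were higher in CORT at 4 h (left) and 6 genes that were lower, 1 point per library with a line at each mean of 3, vehicle blue and CORT orange, the shape giving the replicate number. The groups do not overlap in any of the 11 genes shown, and CORT replicate 1 lies nearest to vehicle in most of them.

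Among the remaining genes that fell, Aplnr, the apelin receptor gene of endothelium, stood at 103.1, 54.1 and 57.1 in CORT and at 239.2, 230.6 and 192.1 in vehicle (-1.67 ± 0.35, log2, SE; limma, adjusted p = 0.0445). The 11 endothelial markers summed to 4985 to 5588 in CORT and 5872 to 6635 in vehicle, with no overlap of these sums. Of the 11 markers 9 were lower and 2 higher, 5 were lower without overlap (6.29% of all features were), none was called and the median was -0.39. That median was -0.30 without the 8 libraries named in both ways and -0.17 under the other names. The part of these markers in the result for Aplnr was not tested. The mean difference over the other times was -0.69 for Aplnr, and the endothelial median over the other times was -0.43.

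Col5a3, which encodes a chain of type V collagen, stood at 244.4, 178.6 and 136.5 in CORT and at 519.4, 423.1 and 433.8 in vehicle, without overlap. It fell by 1.33 on the log2 scale (SE 0.26; limma, adjusted p = 0.0282). Mex3b, an RNA-binding protein gene, stood at 17.2, 14.2 and 11.8 against 49.9, 35.1 and 36.2, and fell by 1.42 (SE 0.27; limma, adjusted p = 0.0187). Gprc5c, an orphan receptor gene, stood at 57.8, 45.9 and 62.1 against 151.2, 107.1 and 133.1, and fell by 1.22 (SE 0.24; limma, adjusted p = 0.0320). In all 3 genes the lowest vehicle library was above the highest CORT library.

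Rnf144a, a ubiquitin ligase gene, stood at 152.7, 126.2 and 91.6 in CORT and 269.3, 232.9 and 238.8 in vehicle (-1.02 ± 0.18, log2, SE; limma, adjusted p = 0.00841). Chp2, whose EF-hand protein binds sodium/proton exchangers, stood at 94.3, 64.9 and 69.7 in CORT and 152.4, 136.5 and 157.3 in vehicle (-0.97 ± 0.16; limma, adjusted p = 0.00361). St8sia4, whose enzyme adds polysialic acid, stood at 181.3, 123.9 and 138.0 against 264.8, 259.6 and 247.6 (-0.81 ± 0.16; limma, adjusted p = 0.0320). Chp2 stayed called in 5 of the 6 omissions of a single 4 h library, Rnf144a in 3 and St8sia4 in 1.

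The remaining genes that rose were of mixed function. Adamts1, a protease gene of the extracellular matrix, stood at 1413, 3237 and 2463 in CORT and 687.7, 861.3 and 815.9 in vehicle, and its 3 CORT values exceeded the 33 other libraries. It rose by 1.51 ± 0.28 (log2, SE; limma, adjusted p = 0.0149), the single call among 15 matrix proteases and inhibitors, of which 9 were lower in CORT. Pcdh20, a protocadherin gene, stood at 29.4, 49.1 and 31.5 against 8.94, 8.36 and 7.64 (1.98 ± 0.42; limma, adjusted p = 0.0473).

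Another 4 called genes outside the rule for naming were added after their values were seen. Id1, an inhibitor of helix-loop-helix transcription factors, stood at 1487, 1275 and 1306 in CORT and 609.7, 547.3 and 492.6 in vehicle (1.30 ± 0.24, log2, SE; limma, adjusted p = 0.0125). It was the single gene that rose in which CORT replicate 1 was not the lowest of its group. Klf13, a zinc finger transcription factor gene, rose by 0.71, Ptgs1, which encodes cyclooxygenase-1, by 0.57, and Mbd1, which encodes a protein that binds methylated DNA, by 0.48 (limma, adjusted p = 0.0432, 0.0465 and 0.0261). None of the 3 overlapped between groups.

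Pathways downstream of glucocorticoids were examined by list. Of 12 anti-inflammatory feedback genes none was called, 11 were higher in CORT, 4 without overlap (7.08% of all features), and the median was 0.38. That median was 0.37 without the 8 libraries named in both ways and 0.33 under the other names. Nfkbia, the gene of the NF-kappa-B inhibitor, stood at 409.2, 920.1 and 921.9 in CORT and at 350.0, 417.0 and 402.0 in vehicle, where CORT replicate 1 lay among the vehicle libraries (0.85; limma, adjusted p = 0.141). Of 14 tested inflammatory cytokine genes none was called, with a median of 0.29, and Il1a and Il6 were too low to be tested.

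Immediate early genes, which respond to stimulation and handling within minutes, were higher in CORT in 12 of 14, with 6 free of overlap (7.08% of all features) and none called, at a median of 0.32. Nr4a1, an orphan nuclear receptor gene, stood at 345.0, 361.7 and 320.3 in CORT and at 62.5, 72.0 and 69.6 in vehicle. These groups were tight and far apart. In the vehicle libraries of other times Nr4a1 ranged from 57.7 to 1125, and its 4 h difference of 2.31 ± 0.89 (log2, SE) was not called (limma, adjusted p = 0.540). Fosb (2.36) and Fos (1.57) likewise did not overlap and had adjusted p of 0.732 and 0.810 (limma). When the 6 libraries of 4 h were fitted alone, 17 features were called, Nr4a1 among them and none of the 29, whose adjusted p in that fit were 0.0582 to 0.551 (limma).

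**Figure D3:**
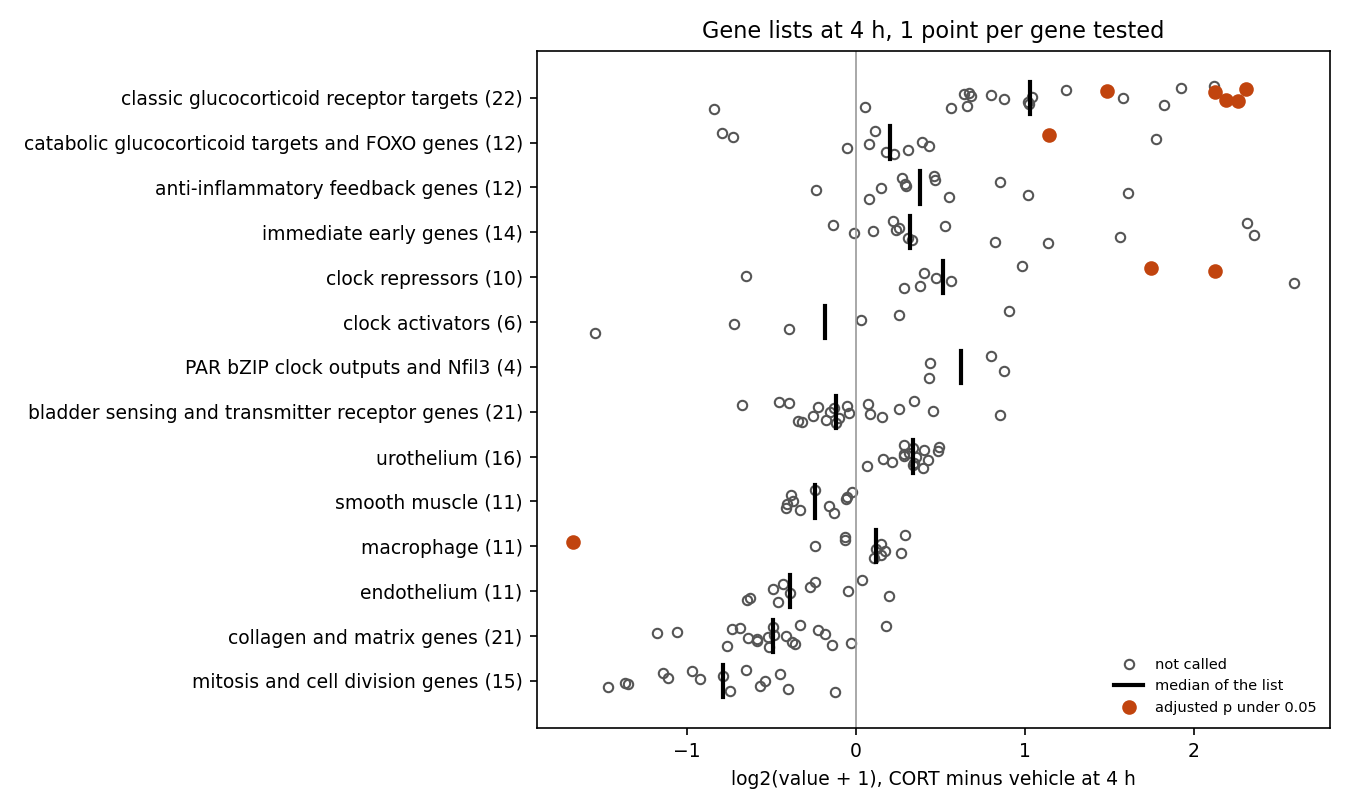
Log2(value + 1) difference, CORT minus vehicle at 4 h, for the genes of 14 lists, 1 point per gene tested, filled where the adjusted p was under 0.05, with a bar at the median of each list and the number tested in brackets. The classic glucocorticoid receptor targets have a median of 1.03 and most filled points, and the collagen and mitosis lists have medians of -0.49 and -0.78 with no filled point.

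Matrix and cell division genes were lower in CORT as lists, with no member called. Of 21 collagen and matrix genes 20 were lower, 10 without overlap, with a median of -0.49. Over all features 6.29% were lower without overlap. Fbn1, which encodes fibrillin-1, stood at 3555, 2082 and 2201 in CORT and at 4431, 5471 and 6074 in vehicle (-1.06; limma, adjusted p = 0.267). Col15a1, a basement membrane collagen gene, stood at 1406, 1578 and 1400 against 2434, 2403 and 2581 (-0.76; limma, adjusted p = 0.248). Both were free of overlap, but the list differed about as much at the other times, with a median of -0.54 for the mean difference from 8 to 24 h. All 15 mitosis genes were lower, 6 without overlap, with a median of -0.78 beside -0.79 at the other times. Mki67, the proliferation marker Ki-67, stood at 302.0, 109.0 and 115.6 in CORT and at 332.9, 332.9 and 372.1 in vehicle (-1.14; limma, adjusted p = 0.468). Under the other names the median was -0.09 for the matrix list and -0.000838 for the mitosis list. Without the 8 libraries it was -0.42 and -0.47.

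The cell layers of the bladder showed small differences. All 16 urothelial markers were higher in CORT, 9 without overlap (7.08% of all features were), with a median of 0.34 and none called, and their sums were 100036 to 118177 in CORT and 70125 to 98043 in vehicle. Upk3a, a uroplakin gene of the urothelial plaque, stood at 9554, 9299 and 10470 in CORT and at 5900, 8081 and 6961 in vehicle (0.50; limma, adjusted p = 0.494). The urothelial median was 0.42 without the 8 libraries and 0.21 under the other names. All 11 smooth muscle markers were lower in CORT, 1 without overlap (6.29% of all features were), with a median of -0.24 (-0.36 and -0.12 in these settings). Adipocyte markers had a median of -1.03, but their sums overlapped widely, at 5943 to 10001 in CORT and 6166 to 13240 in vehicle, and without CORT replicate 1 the median was -0.00247. The part of urothelial and muscle content in the called genes was not tested.

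Bladder sensing and transmitter receptor genes did not stand apart. None of 21 was called, 20 overlapped, and the median was -0.12. Over all features 7.08% were higher in CORT without overlap and 6.29% lower. Piezo1, a stretch-activated channel gene, stood at 726.6, 973.8 and 945.4 in CORT and at 802.0, 1065 and 1026 in vehicle (-0.13 ± 0.16, log2, SE; limma, adjusted p = 0.949). Trpv4, another mechanosensory channel gene, stood at 567.4, 773.8 and 917.1 against 460.4, 673.1 and 632.4 (0.35 ± 0.25; limma, adjusted p = 0.875). Gja1, which encodes connexin 43, stood at 726.3, 718.4 and 718.6 against 588.9, 632.8 and 723.8 (0.16 ± 0.22; limma, adjusted p = 0.957). Slc17a9, the vesicular nucleotide transporter gene, was at 11.5, 6.86 and 8.81 against 7.89, 11.3 and 8.81, with few reads behind each value (-0.05 ± 0.35; limma, adjusted p = 0.987). P2ry2, a receptor gene for ATP and UTP, was the 1 member without overlap, at 189.9, 201.0 and 234.9 against 139.4, 147.6 and 166.3 (0.46; limma, adjusted p = 0.678).

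Whether the 4 h difference was unlike that of the rest of the day was tested directly, as the difference at 4 h minus the mean of the differences at the other 5 times. By this test 21 of 17867 features passed (0.118%; limma), 19 with a higher and 2 with a lower difference at 4 h, and 17 of them were among the 29. Both tests contain the same 4 h difference, so this overlap is in part built in. Per1 had a difference of 2.59 ± 0.31 (log2, SE) between 4 h and the rest, with a mean difference of -0.46 at the other times (limma, adjusted p = 0.000117). Tsc22d3 (2.53 ± 0.31), Errfi1 (2.46 ± 0.31), Wee1 (1.33 ± 0.17), Per2 (1.97 ± 0.29) and Fkbp5 (2.16 ± 0.36) passed too, with adjusted p of 0.000117 to 0.00617 (limma). Cx3cr1 did not pass, with -1.31 ± 0.31 (limma, adjusted p = 0.119).

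**Figure D4:**
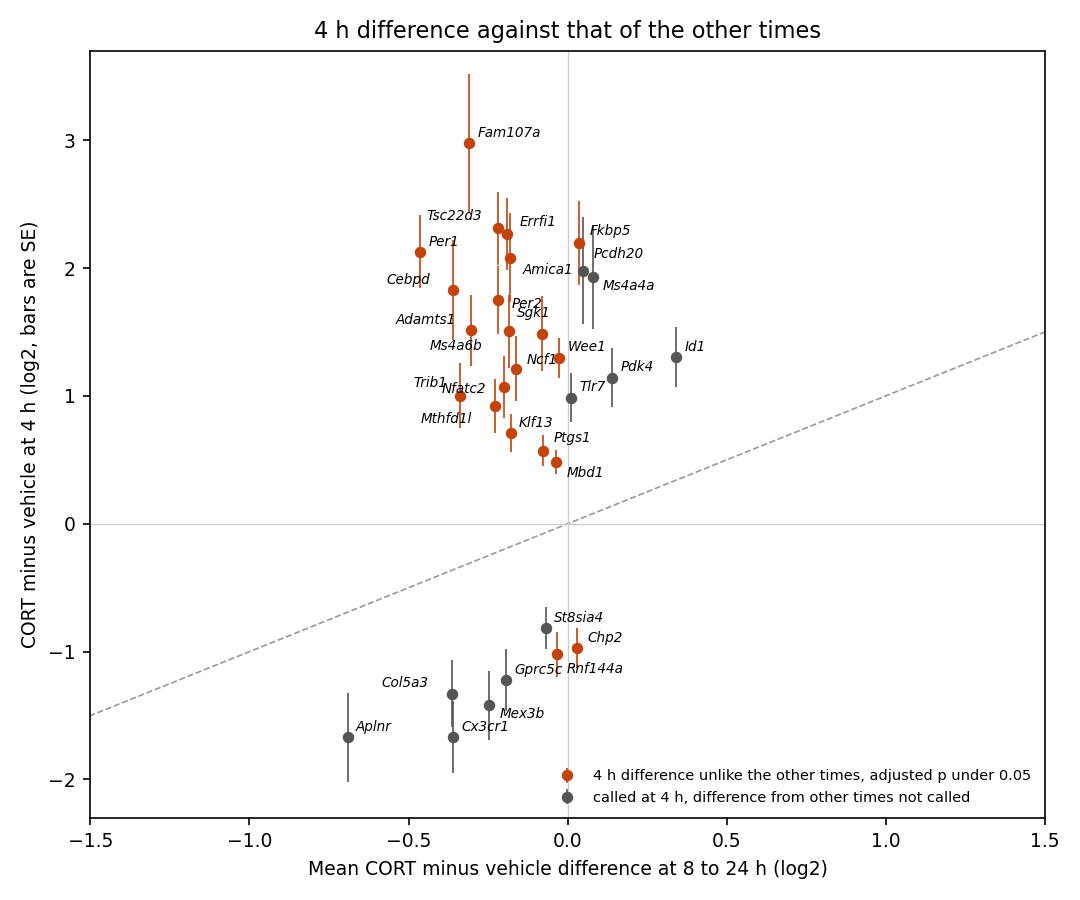
CORT minus vehicle difference at 4 h (vertical axis, log2, bars are SE) against the mean difference at 8 to 24 h (horizontal axis, log2) for genes called by either test and described here, orange where the 4 h difference was unlike the rest at an adjusted p under 0.05. The broken line marks equal differences, and orange points lie off it by the way they were chosen. The orange points for Per1, Tsc22d3 and the other genes higher in CORT have mean differences near or below 0 at the other times.

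By time, the high CORT values of Tsc22d3 were those of the 4 h label. At 8 h its values were 665.0, 819.0 and 989.7 in CORT and 739.7, 970.3 and 930.8 in vehicle, with overlap. Fkbp5 at 8 h stood at 629.1, 680.7 and 1194 in CORT and at 393.0, 543.4 and 614.4 in vehicle, so that its groups were then just apart. Errfi1 at 8 h was at 475.8, 585.1 and 703.0 against 554.6, 1093 and 1204, with overlap. Some later CORT libraries stood high too. Replicate 1 of CORT 16 h was at 2336 for Tsc22d3, 983.2 for Fkbp5, 733.7 for Per1 and 1351 for Zbtb16, above the other libraries of its group in each. Replicate 1 of CORT 24 h stood at 897.1 for Per1, above the lowest CORT library of 4 h. For Tsc22d3 and Zbtb16 the other CORT libraries of 16 h were at 893.6 and 1150, and at 335.3 and 490.7.

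The clock genes had different profiles over the label clock in the CORT and vehicle libraries. Arntl in vehicle had means of 309.6 ± 48.3 at 4 h, 66.6 ± 24.1 at 12 h and 330.6 ± 45.1 at 24 h (SD, n = 3), and in CORT of 110.9 ± 47.7 at 4 h and 298.9 ± 47.5 at 12 h. The 12 h means of Per2 were 336.4 ± 25.3 in CORT and 764.0 ± 172 in vehicle, the reverse of the order at 4 h. For Ciart the vehicle means were 4.37 ± 2.48 at 4 h and 62.6 ± 34.1 at 12 h, and the CORT means 33.1 ± 17.5 and 1.87 ± 1.42. These profiles are a description, and no difference at 12 h was tested.

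**Figure D5:**
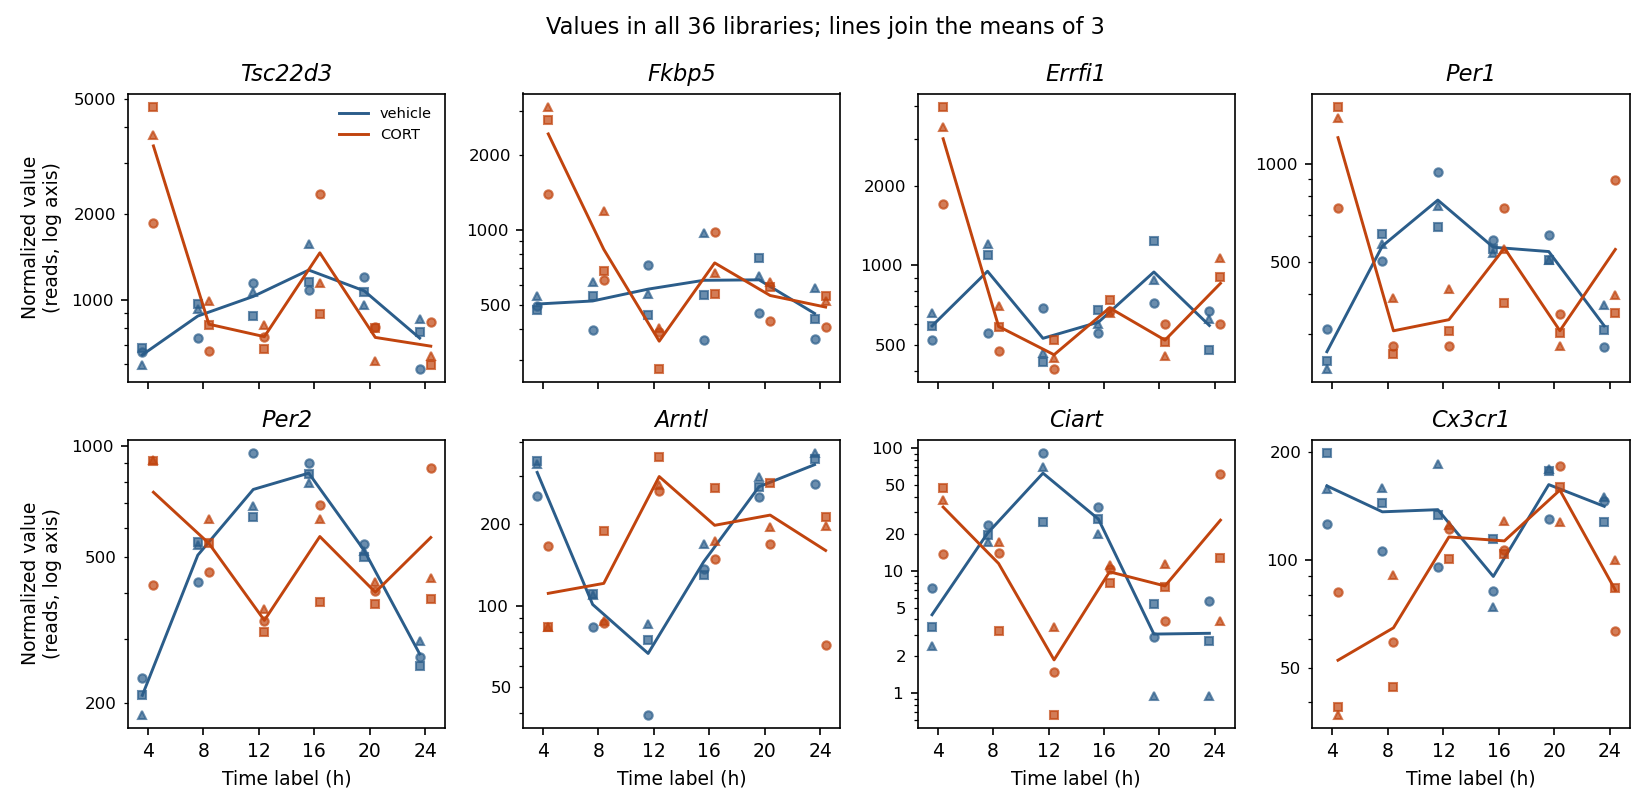
Normalized values (reads, log axis) of 8 genes in all 36 libraries by time label (h), vehicle blue and CORT orange, with circles, squares and triangles for replicates 1, 2 and 3 and lines through the means of 3. The CORT means of Tsc22d3, Fkbp5, Errfi1 and Per1 are highest at 4 h, and Arntl and Ciart run in opposite directions in the CORT and vehicle libraries between 4 and 12 h.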

How the data were processed

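The deposited tables used here hold signal values for 49585 features in 36 libraries. To make them the authors applied quantile normalization to read counts, within each table of 12 libraries, as the values show (multiples of 1 read divided by 12). Reads were aligned to mm10, per the submitters' processing notes, with aligner and counter not given in the sources used here. Smaller deposited tables hold log2 values of genes that the authors selected, and served only to compare library names. Tables were joined by giving every library the mean of their sorted values. Groups came from the labels. Limma 3.58.1 (R 4.3.3) was fitted to log2(value + 1) with 12 group means over all 36 libraries, two-sided, for the 17867 features that were not at the lowest value in over 50% of libraries, with Benjamini-Hochberg adjustment and a threshold of 0.05. A second contrast set the 4 h difference against the mean of the other 5. Both were run on simulated data that held no time course, no effect of the replicate number and no doubtful names. That run therefore does not cover these properties of the real data. The members and lists were chosen with earlier results of these data known. The rule for naming took up to 12 called genes per direction with a mean of at least 20 and no overlap, the 10 with the smallest p in the second contrast, called list members and the 4 of smallest p in each list, and a set of fixed genes. Genes named outside it are so described, and results for a few genes are not reported here. Alternatives were another pseudocount, filters, scalings, a variance trend, a replicate term, other names and leaving out libraries. Pandas 2.3.3, numpy 2.4.6 and matplotlib 3.10.9 were used, gene positions came from the GENCODE annotation of GRCm38 and promoters from RefSeq.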

Additional observations from a re-analysis of the deposited data

Results flagged for a closer look

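For 21 genes the CORT minus vehicle difference at 4 h was unlike the mean difference at the other 5 times by a direct test of that contrast (limma, adjusted p from 0.000117 to 0.0487). Values below are the excess of the 4 h difference on the log2 scale. The glucocorticoid and clock genes among them were Per1 (2.59), Tsc22d3 (2.53), Errfi1 (2.457), Fkbp5 (2.157), Cebpd (2.19), Sgk1 (1.569), Per2 (1.97) and Wee1 (1.327). Fam107a had the highest value of the 21, 3.286. Genes of immune cells were Amica1 (2.264), Ms4a6b (1.692) and Ncf1 (1.375). The others with a higher difference at 4 h were Adamts1 (1.818), Trib1 (1.341), Nfatc2 (1.273), Mthfd1l (1.149), Klf13 (0.887), Ptgs1 (0.6504) and Mbd1 (0.5181). Chp2 (-1.0) and Rnf144a (-0.9872) had a lower one. Cebpd, Trib1, Mthfd1l and Nfatc2 were not called in the 4 h comparison itself, with adjusted p of 0.0507, 0.130, 0.0605 and 0.0595 (limma). Trib1, Mthfd1l and Nfatc2 were named after their values were seen.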

How the results depend on the processing

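All 29 genes kept their direction under every alternative run, and none reversed. The 29 were chosen by a fit to libraries that these runs largely share, so kept direction is no independent support. The count of 29 was 47 with a minimum mean of 10, 48 with each arm on its own scale (37 higher, 11 lower), 45 with a variance trend, and 17 with the 6 libraries of 4 h alone. With the replicate block it was 52. Same-numbered 4 h libraries deviated together at correlations of 0.228, 0.0551 and 0.238 for numbers 1, 2 and 3. The labels tie no number to an animal, but all replicate 3 libraries were registered later than the others. The numbers were not used as pairs in the main fit, which leaves any part that they share in the spread. The replicate block was run as an alternative only. That 30 of 36 libraries correlated best with their own number is a hint from the data, not the design, that libraries of 1 number share something. Under the names that the selected-gene tables give, the fit called 2 features at 4 h and 0 in the contrast with other times (limma; 443 and 493 with unadjusted p under 0.05). Without the 8 libraries named in both ways, an alternative chosen after seeing the data, both counts were 0 (limma; 726 and 548 with unadjusted p under 0.05). Leaving out libraries gave 0 to 89 calls at 4 h and 0 to 70 in the other contrast. For single 4 h libraries the counts were 86, 6 and 8 without CORT replicate 1, 2 or 3, and 14, 10 and 11 without vehicle replicate 1, 2 or 3, and for the other contrast 70, 5 and 6, and 5, 9 and 9. Without all libraries of replicate 1 they were 89 and 61, and without those of replicate 2 or 3 both were 0 (limma; 784 and 567 with unadjusted p under 0.05 at 4 h, 567 and 551 in the other contrast). The cause of these changes was not tested. Genes with few reads, such as Ciart in vehicle, are limited by depth.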
